A study of Mus musculus with 6 samples.

Results

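The 45 genes described here encode proteins that sense, mark, cut back and rejoin broken DNA, or that unhook DNA crosslinks, and they were picked by matching gene symbols in the expression table. All 45 were found among the 54532 genes listed, and all 45 were abundant enough to be tested. The study sequenced RNA from haploid mouse embryonic stem cells of strain 129SV, which carry a single set of chromosomes, with p53 lost in one group and wild type (WT) p53 in the other. There were 3 libraries of p53-deficient haploid cells and 3 libraries of WT haploid cells, and the cells had no other stated treatment. Sample titles call the first group P53ki, whereas its genotype field marks p53 as missing and the series design calls it a knockout. Nothing in the sources used here says whether the 3 libraries of a group came from separate cultures or clones. The p-values therefore rest on library-to-library spread that may be technical, and loss of p53 cannot be told apart from other differences between the cell lines.

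A double-strand break is sensed by the ATM and ATR kinases, which signal through CHK2 and CHK1 and phosphorylate histone H2AX beside the break. The break is then either rejoined directly by the Ku, DNA-PKcs, XRCC4 and LIG4 proteins, or cut back to single strands by nucleases and copied from the sister chromatid by the BRCA proteins and the mediators of recombination. Fanconi proteins act where crosslinks block the replication fork: a core complex attaches ubiquitin to FANCD2 and FANCI, which recruit the cutting and recombination steps. Embryonic stem cells divide fast, spend much of their cycle in S phase and are known for heavy use of homologous recombination.

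Levels are given in FPKM, fragments per kilobase of gene, scaled to library size. Differences are log2 fold changes of FPKM + 1, p53-deficient over WT, with their standard error (SE). A gene was called higher or lower where limma's Benjamini-Hochberg adjusted p, taken over 15144 genes with a mean of at least 0.5 FPKM, was under 0.05. Adding 1 understates the change of low genes, so the ratio of mean FPKM is given as well where it helps. Libraries held 11536412 to 21218976 reads in listed genes, and the repair genes had 41 to 5438 reads each per library.

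The gene said to be lost, Trp53 (chr11:69580359-69591873, mm10), had 9.71, 9.71 and 9.98 FPKM in p53-deficient libraries, against 64.5, 69.8 and 69.6 FPKM in WT libraries. Cdkn1a, the cell cycle inhibitor that p53 switches on, had 10.1, 9.94 and 8.92 FPKM in p53-deficient libraries, against 87.6, 88.1 and 87.0 FPKM in WT libraries. All 10 embryonic stem cell markers were present in every library, summing to 2773.1 to 2880.3 FPKM in p53-deficient libraries and 3510.4 to 3580.8 FPKM in WT libraries. They did not move together, with 5 higher, among them Utf1 (log2 fold change 2.28) and Esrrb (0.88), and 4 lower, and Dppa5a averaged 1075.0 FPKM in p53-deficient libraries and 2007.0 FPKM in WT libraries. Fibroblast markers moved with the groups: all 28 tested of 31 listed were lower, with sums of 704.0 to 740.5 FPKM in p53-deficient libraries and 2313.1 to 2327.5 FPKM in WT libraries, and S100a4 was listed at 0 in p53-deficient libraries 1 and 2. The 4 Y-linked genes of another list summed to 0.330 to 0.395 FPKM in p53-deficient libraries and 3.51 to 3.94 FPKM in WT libraries. The part of these values in the results below was not tested, and in bulk RNA fewer cells of a type and less RNA per cell cannot be told apart.

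The repair genes moved in both directions. Of the 45, 17 were higher, 15 were lower and 13 did not pass the test, against 35.3% higher and 31.3% lower among all genes tested. Taken in either direction the background was 66.5%, so the repair genes were called about as often as genes at large. Their median log2 fold change was 0.04, beside 0.03 over all genes tested. Scaling every library by its median log2 ratio, called median-ratio scaling below, shifted both medians down, to -0.06 for the repair genes and -0.05 for all genes. The split then became 14 higher and 19 lower, against 27.6% higher and 37.5% lower among all genes, and quantile normalization gave 21 higher and 15 lower, against 36.7% and 29.8% of all genes. Under all 3 scalings 14 genes were higher and 14 were lower, and no gene called in one direction was called in the other.

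The typical change was of the same size as that of all genes tested, but the largest changes were smaller. From the lower to the upper quartile, log2 fold changes of the repair genes were 0.114 to 0.411 in size, with a median of 0.285, and those of all genes were 0.137 to 0.556, with a median of 0.294. With the values as deposited, none of the 45 reached a log2 fold change of 1 in size, which 9.83% of all genes did. After median-ratio scaling Rad51d was at -1.02. Ratios of mean FPKM ran from 0.444 for Rad51d to 1.74 for Rad52. Rad51d was the single repair gene whose mean FPKM differed at least 2-fold between groups, against 19.8% of all genes tested. The libraries of the groups did not overlap for 36 of the 45 genes, and for 71.4% of all genes tested.

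**Figure D1:**
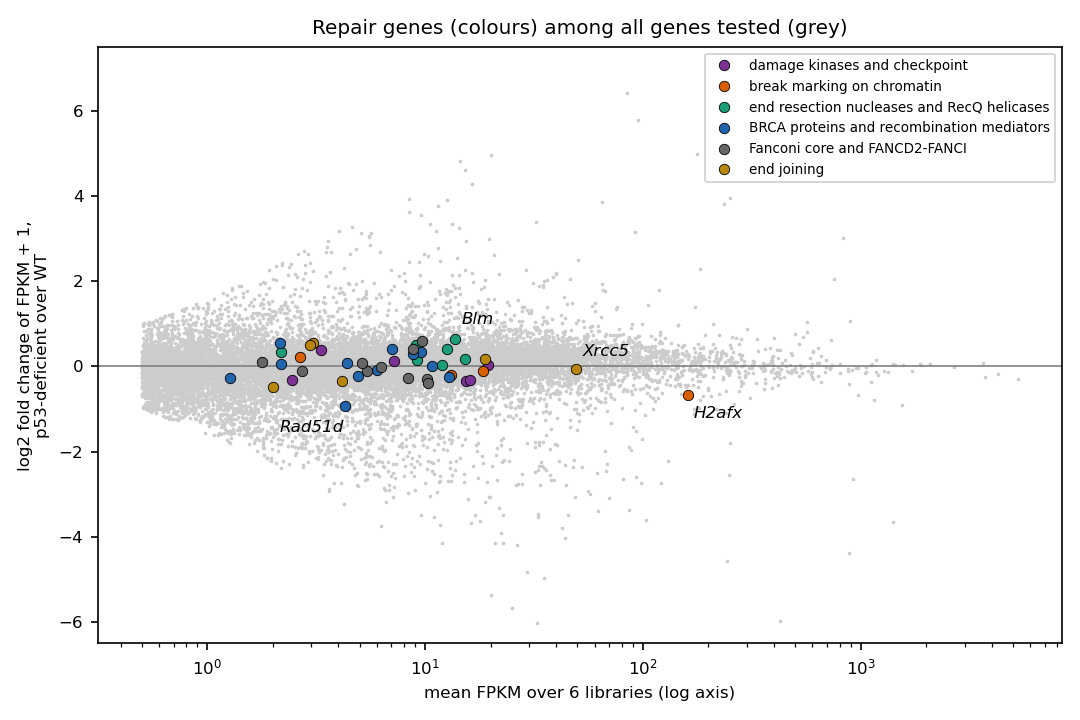
Each point is a gene: the mean FPKM over the 6 libraries (horizontal, log axis) against the log2 fold change of FPKM + 1, p53-deficient over WT (vertical), with the repair genes coloured by role and all 15144 tested genes in grey. The repair genes lie in a narrow band from -0.93 (Rad51d) to 0.64 (Blm), and H2afx lies far to the right of the others by level.

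Promoters were searched because genes of the list moved in opposite directions, and counts of sequence elements near their start sites can be set beside those directions. RefSeq promoter windows on GRCm38.p6, from 250 bases before the start to 50 after it, were matched to 34 of the 45 genes. The 250 upstream bases of 5 genes whose windows hold no annotated exon follow, 5′ to 3′ on the gene's strand, with the matched element in capitals (its reverse complement where it lies on the other strand). Of these 5, Brca2, Polq, Xrcc3 and Atrip were called higher and Xrcc5 was not called, so no promoter of a lower gene is printed. The 5 were picked among the genes named in full, as set out under processing. Windows of other genes held no annotated exon either, among them those of Mdc1 and of a start site of Rad51b, both called lower. In Brca2 (chr5:150522371-150522620, plus strand) the capitals mark TTTCCCGC, in Polq (chr16:37011536-37011785, plus strand) TTTGAA, and in Xrcc3 (chr12:111813880-111814129, minus strand), Atrip (chr9:109074125-109074374, minus strand) and Xrcc5 (chr1:72307171-72307420, plus strand) CCAAT.
Brca2: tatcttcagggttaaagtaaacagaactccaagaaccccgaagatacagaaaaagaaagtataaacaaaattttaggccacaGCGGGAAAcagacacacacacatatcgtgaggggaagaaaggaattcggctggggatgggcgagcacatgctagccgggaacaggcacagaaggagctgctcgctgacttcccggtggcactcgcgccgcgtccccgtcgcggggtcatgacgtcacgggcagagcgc
Polq: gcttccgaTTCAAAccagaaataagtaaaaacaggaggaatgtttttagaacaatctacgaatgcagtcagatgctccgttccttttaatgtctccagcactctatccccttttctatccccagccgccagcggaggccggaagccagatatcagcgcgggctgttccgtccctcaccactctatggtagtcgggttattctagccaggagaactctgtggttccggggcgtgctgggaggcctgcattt
Xrcc3: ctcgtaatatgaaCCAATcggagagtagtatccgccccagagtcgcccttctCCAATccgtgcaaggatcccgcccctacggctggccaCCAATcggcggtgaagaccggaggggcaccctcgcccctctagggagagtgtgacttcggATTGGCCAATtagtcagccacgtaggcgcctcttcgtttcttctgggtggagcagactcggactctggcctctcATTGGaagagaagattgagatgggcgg
Atrip: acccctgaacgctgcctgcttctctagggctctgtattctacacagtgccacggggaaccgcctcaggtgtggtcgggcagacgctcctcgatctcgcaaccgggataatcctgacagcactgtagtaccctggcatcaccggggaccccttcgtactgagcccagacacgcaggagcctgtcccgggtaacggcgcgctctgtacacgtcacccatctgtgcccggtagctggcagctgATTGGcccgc
Xrcc5: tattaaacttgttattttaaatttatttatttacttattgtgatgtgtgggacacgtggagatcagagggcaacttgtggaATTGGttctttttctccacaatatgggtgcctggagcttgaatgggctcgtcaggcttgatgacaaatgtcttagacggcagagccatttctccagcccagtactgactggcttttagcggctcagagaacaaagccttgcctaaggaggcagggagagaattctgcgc

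Searched on both strands, TTTCCCGC, a form of the E2F element of S phase genes, was found in 7 of the 34 windows (20.6%), against 2.44% of the windows of tested genes and 1.24% of all windows. The 7 genes were Bard1, Brca2, Chek2, Fancg, Mdc1, Rad51c and Xrcc6, of which 2 were higher, 2 were lower and 3 were not called. The other E2F form searched, TTTGGCGC, was in none of the 34 windows, against 1.15% of tested genes. CCAAT, the element bound by NF-Y, was in 20 windows (58.8%, against 43.7% of tested genes), and 8 of these genes were higher, 5 lower and 7 not called. Xrcc3 held it at 6 places, 2 of them side by side. TTTGAA, the core of the CHR element of cell cycle genes, was in 4 windows (11.8%, against 14.3%), and the p53 decamer consensus was in those of Fanca and Fancg (5.88%, against 8.08%), neither of which was called. A match describes letters only. TTTCCCGC, CCAAT and TTTGAA each stood in windows of genes that were higher, of genes that were lower and of genes that were not called.

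**Figure D2:**
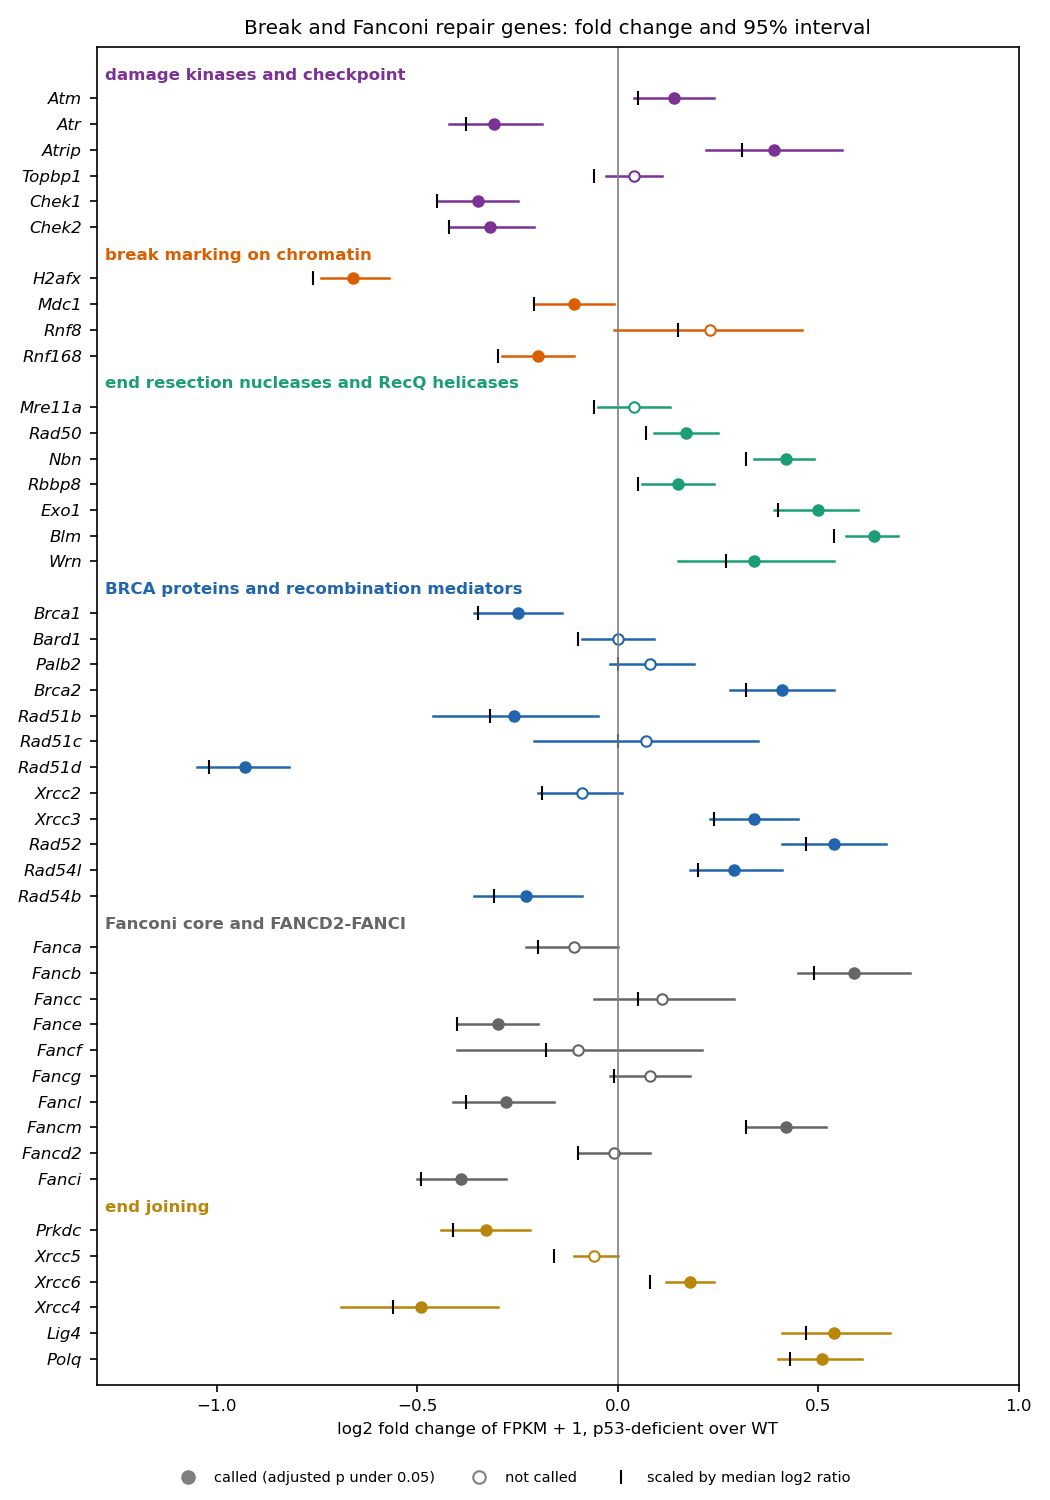
Log2 fold change of FPKM + 1, p53-deficient over WT, of each of the 45 genes, grouped by role, with 95% intervals (n = 3 libraries a group). Filled points passed the test and open points did not, and short vertical ticks give the fold change after median-ratio scaling. Resection genes lie at or right of 0, whereas the other roles spread to either side.

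Among the kinases that sense damage and the checkpoint proteins they act through, 2 of 6 genes were higher and 3 were lower. After median-ratio scaling these counts were 1 and 3. Of all genes tested 35.3% were higher and 31.3% lower, or 27.6% and 37.5% after median-ratio scaling. Quantile normalization gave 36.7% and 29.8%. These shares stand behind the counts of every role below, and no role was tested as a whole. The ATR arm was split within itself. Atrip, the partner that brings ATR to coated single strands, had 4.26, 3.62 and 3.90 FPKM in p53-deficient libraries, against 2.86, 2.51 and 2.90 FPKM in WT libraries. All p53-deficient libraries were above all WT libraries, with a log2 fold change of 0.39 (SE 0.069, adjusted p = 0.00238). Trex1, listed at 0 in every library, overlaps 16.0% of the exon bases of Atrip on the same strand, and reads there cannot be parted. Atr itself moved the other way, averaging 2.08 ± 0.0730 FPKM in p53-deficient libraries and 2.82 ± 0.0701 FPKM in WT libraries (SD, n = 3 each; log2 fold change -0.31, adjusted p = 0.00123). Topbp1, which activates ATR, had 20.01, 19.35 and 20.06 FPKM in p53-deficient libraries, against 18.85, 19.50 and 19.45 FPKM in WT libraries. These ranges overlapped and the gene was not called (log2 fold change 0.04, adjusted p = 0.271).

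Both effector kinases were lower. Chek1, the kinase that ATR switches on to hold back the cell cycle, had 13.8, 12.8 and 13.8 FPKM in p53-deficient libraries, against 17.9, 17.1 and 17.3 FPKM in WT libraries. The groups were apart in every library, at a log2 fold change of -0.35 (SE 0.040, adjusted p = 0.000284). Chek2, the kinase downstream of ATM, averaged 14.24 ± 0.726 FPKM in p53-deficient libraries and 17.96 ± 0.405 FPKM in WT libraries (SD, n = 3 each; log2 fold change -0.32, adjusted p = 0.000584). Atm, the kinase that answers to double-strand breaks, was called higher by a small margin, with 7.21, 7.77 and 7.90 FPKM in p53-deficient libraries, against 6.76, 6.93 and 6.72 FPKM in WT libraries. Its log2 fold change of 0.14 (adjusted p = 0.0206) became 0.05 after median-ratio scaling (adjusted p = 0.362), and the call was also lost without WT library 1 (adjusted p = 0.0601), WT library 3 (0.0634), p53-deficient library 2 (0.0571) or p53-deficient library 3 (0.0634).

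Of the 4 genes that mark the chromatin around a break, 3 were lower and none was higher, also after median-ratio scaling. Among all genes tested 31.3% were lower, or 37.5% after that scaling. With the values as deposited, Mdc1 among the 3 was at the edge of the threshold. Quantile normalization added Rnf8 as higher. H2afx (chr9:44334694-44336077, mm10, plus strand) encodes the histone variant whose phosphorylated form flags a break. Its mRNA is known in a polyadenylated form and in a histone-like form without a tail, and libraries made from RNA bound to poly-T beads favour the first. It was the most abundant gene of the 45, with 129.5, 121.4 and 122.2 FPKM in p53-deficient libraries, against 200.5, 198.0 and 190.8 FPKM in WT libraries. Every p53-deficient library was far under every WT library, with a log2 fold change of -0.66 (SE 0.034, adjusted p = 7.32e-06) and a ratio of mean FPKM of 0.633. The summed level of the list turned on H2afx: all 45 genes summed to 519.1 to 529.0 FPKM in p53-deficient libraries and 580.3 to 593.2 FPKM in WT libraries, but without H2afx to 397.7 to 406.7 FPKM in p53-deficient libraries and 388.3 to 392.6 FPKM in WT libraries.

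The adaptor and ubiquitin ligases that act on marked chromatin changed less. Rnf168, a ligase that ubiquitinates H2A, was lower, averaging 12.1 FPKM in p53-deficient libraries and 14.1 FPKM in WT libraries (log2 fold change -0.20, adjusted p = 0.00355). Rnf8, the ligase that acts before it, had 3.53, 2.48 and 2.89 FPKM in p53-deficient libraries, against 2.37, 2.39 and 2.35 FPKM in WT libraries. The p53-deficient values were spread more widely than the WT values and all lay above them, but the gene was not called (log2 fold change 0.23, SE 0.097, adjusted p = 0.0793); without p53-deficient library 2 it was (adjusted p = 0.0151). Mdc1, the adaptor that binds phosphorylated H2AX, had 16.70, 18.35 and 18.01 FPKM in p53-deficient libraries, against 18.78, 19.18 and 19.50 FPKM in WT libraries. Its log2 fold change of -0.11 (adjusted p = 0.0470) was at the edge of the threshold and was not called when WT library 1, 2 or 3 or p53-deficient library 1 or 3 was left out (adjusted p = 0.0660 to 0.131).

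The end resection genes of the list, with its RecQ helicases that unwind the ends, were called in a single direction. Of 7 genes 6 were higher and none was lower, and on the median-ratio scale 4 were higher and none was lower. Quantile normalization gave 6 higher and none lower. Their summed level was 81.5, 84.3 and 82.8 FPKM in p53-deficient libraries, against 65.4, 65.3 and 64.7 FPKM in WT libraries. The share called higher was above the background of all genes given above, and no test of that list as a whole was made. Genes of this kind that are counted among other recombination genes below were called in both directions. Recql was higher (log2 fold change 0.43, adjusted p = 0.000287). Pyroxd1, at a mean of 0.890 FPKM, overlaps 37.7% of the exon bases of Recql on the opposite strand, and without strand these reads cannot be parted. Dna2 (-0.17, adjusted p = 0.00767) and Recql5 (-0.28, adjusted p = 0.00109) were lower. These calls held after median-ratio scaling. Blm (chr7:80454733-80535119, mm10, minus strand), the helicase lost in Bloom syndrome, had the largest positive log2 fold change of FPKM + 1 of all 45 genes. It had 16.6, 16.9 and 17.1 FPKM in p53-deficient libraries, against 10.6, 10.3 and 10.6 FPKM in WT libraries. The libraries of each group lay close together and far from the others, with a log2 fold change of 0.64 (SE 0.028, adjusted p = 3.54e-06) and a ratio of 1.61. The less abundant Rad52 and Lig4 had larger ratios, at 1.74 and 1.66.

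Exo1, an exonuclease of long-range resection that works beside BLM, had 10.4, 11.2 and 10.9 FPKM in p53-deficient libraries, against 7.23, 7.73 and 7.25 FPKM in WT libraries. It was higher in every p53-deficient library (log2 fold change 0.50, SE 0.042, adjusted p = 7.01e-05). Wrn, the helicase lost in Werner syndrome, had 2.24, 2.77 and 2.66 FPKM in p53-deficient libraries, against 1.90, 1.60 and 1.91 FPKM in WT libraries. The groups were apart but each was loose, giving a log2 fold change of 0.34 (SE 0.081, adjusted p = 0.00891).

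The MRN complex, which tethers and first nicks the ends, did not move as a unit. Nbn, its adaptor to ATM, had 14.5, 14.6 and 14.7 FPKM in p53-deficient libraries, against 10.3, 10.9 and 10.8 FPKM in WT libraries. This was a clear rise, with a log2 fold change of 0.42 (SE 0.032, adjusted p = 4.04e-05). Mre11a, the nuclease, had 12.3, 12.1 and 12.2 FPKM in p53-deficient libraries, against 12.3, 11.9 and 11.3 FPKM in WT libraries. These values overlapped and the gene was not called (log2 fold change 0.04, adjusted p = 0.403). Rad50, the tether, was called higher at 0.17 (adjusted p = 0.00369), and Rbbp8, which encodes the CtIP cofactor of the nuclease, at 0.15 (adjusted p = 0.0128). Neither was called after median-ratio scaling, where the log2 fold changes were 0.07 (adjusted p = 0.102) and 0.05 (adjusted p = 0.316).

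**Figure D3:**
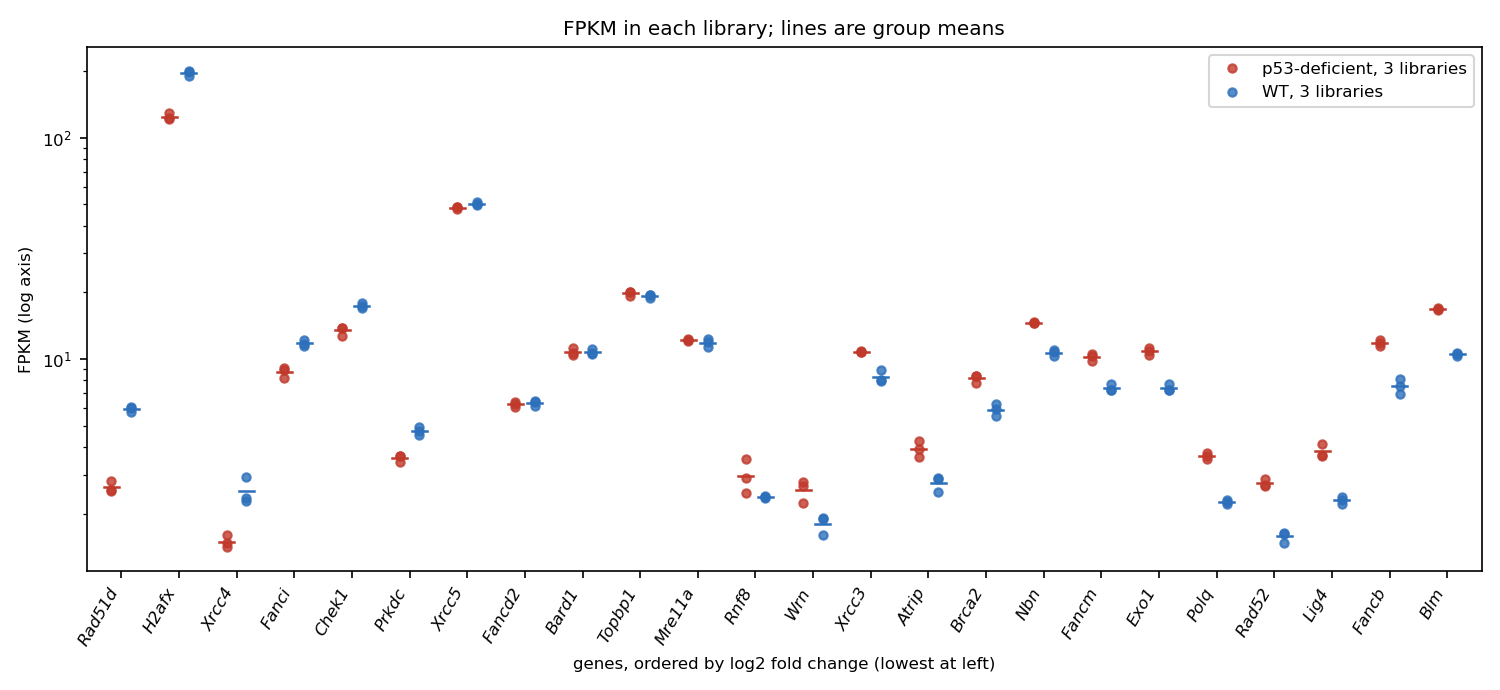
FPKM of 24 repair genes in each library (log axis), with p53-deficient libraries in red to the left of WT libraries in blue and lines at the group means (n = 3 libraries each), ordered by log2 fold change. For Rad51d, H2afx and Xrcc4 at the left the p53-deficient points lie below the WT points, in the middle the groups meet, and for Lig4, Fancb and Blm at the right they lie above.

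Among the BRCA proteins and the mediators of recombination, which act on the resected single strand, 4 of 12 genes were higher and 4 were lower. After median-ratio scaling 4 were higher and 5 lower, and after quantile normalization 5 and 3. The largest fall of all 45 genes was in Rad51d (chr11:82876434-82890614, mm10, minus strand), a subunit of a mediator complex it forms with Rad51b, Rad51c and Xrcc2. It had 2.56, 2.54 and 2.81 FPKM in p53-deficient libraries, against 5.74, 5.98 and 6.08 FPKM in WT libraries. The p53-deficient values were all under those of WT by more than the spread of either group, with a log2 fold change of -0.93 (SE 0.048, 95% interval -1.05 to -0.82, adjusted p = 7.45e-06) and a ratio of 0.444. Trp53 lies on the same chromosome, and so do Rad50, Brca1, Rad51c and Fancl of the list. Of these, Rad50 was called higher, Brca1 and Fancl lower, and Rad51c was not called.

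The other genes of this family, Rad51b, Rad51c, Xrcc2 and Xrcc3, did not share this size of change. Xrcc3, which pairs with RAD51C and whose promoter with 6 CCAAT elements is printed above, had 10.9, 10.7 and 10.7 FPKM in p53-deficient libraries, against 8.95, 7.95 and 8.07 FPKM in WT libraries. It was higher in all p53-deficient libraries (log2 fold change 0.34, SE 0.047, adjusted p = 0.000713). Rad51b had 0.999, 0.944 and 1.28 FPKM in p53-deficient libraries, against 1.42, 1.39 and 1.62 FPKM in WT libraries. This low gene was called lower (log2 fold change -0.26, adjusted p = 0.0329), but not without WT library 1, 2 or 3 or p53-deficient library 1 or 2 (adjusted p = 0.0574 to 0.104) and not after quantile normalization (adjusted p = 0.194). Rad51c averaged 2.25 FPKM in p53-deficient libraries and 2.09 FPKM in WT libraries (log2 fold change 0.07, adjusted p = 0.608), and Xrcc2 averaged 5.80 FPKM in p53-deficient libraries and 6.25 FPKM in WT libraries (log2 fold change -0.09, adjusted p = 0.0946). Neither passed the test, though Xrcc2 was called lower after median-ratio scaling (adjusted p = 0.00805).

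Rad52, which anneals single strands, had the largest ratio of the list. It had 2.87, 2.66 and 2.70 FPKM in p53-deficient libraries, against 1.64, 1.61 and 1.48 FPKM in WT libraries. The groups were well apart, with a ratio of 1.74 and a log2 fold change of 0.54 (SE 0.055, adjusted p = 0.000160). Brca2, a large mediator of recombination whose loss predisposes to breast cancer, had 7.78, 8.40 and 8.35 FPKM in p53-deficient libraries, against 6.25, 5.52 and 5.95 FPKM in WT libraries. It too was higher throughout (log2 fold change 0.41, SE 0.053, adjusted p = 0.000499). Brca1 moved the other way, with 11.2, 11.5 and 12.2 FPKM in p53-deficient libraries, against 13.4, 13.9 and 14.7 FPKM in WT libraries (log2 fold change -0.25, adjusted p = 0.00311). Its ubiquitin ligase partner Bard1 had 10.6, 10.4 and 11.3 FPKM in p53-deficient libraries, against 10.6, 11.1 and 10.6 FPKM in WT libraries, and the groups overlapped (log2 fold change -0.00, adjusted p = 0.989).

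The translocases that help strands invade and exchange split by paralog: Rad54l was higher (ratio 1.26, log2 fold change 0.29, adjusted p = 0.00135) and Rad54b was lower (ratio 0.830, log2 fold change -0.23, adjusted p = 0.0112). Rad54b shared 35.8% of its exon bases with Fsbp on the same strand, whose log2 fold change was -0.29, so reads of these genes could not be parted. Palb2, the bridge between BRCA1 and BRCA2, averaged 4.53 FPKM in p53-deficient libraries and 4.22 FPKM in WT libraries and was not called (log2 fold change 0.08, adjusted p = 0.144).

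Of the 10 Fanconi genes 2 were higher, 3 were lower and 5 did not pass the test. Median-ratio scaling gave 2 higher and 5 lower, and quantile normalization gave 4 higher and 3 lower. Fancb (chrX:164980592-164997272, mm10) encodes a subunit of the core complex beside the FANCL ligase. It had 11.8, 11.5 and 12.2 FPKM in p53-deficient libraries, against 8.11, 7.57 and 6.92 FPKM in WT libraries, and was higher in every p53-deficient library (log2 fold change 0.59, SE 0.057, adjusted p = 0.000129). Fancm, the translocase that anchors the core complex at a stalled fork, had 9.76, 10.5 and 10.4 FPKM in p53-deficient libraries, against 7.67, 7.22 and 7.25 FPKM in WT libraries. Its log2 fold change was 0.42 (SE 0.041, adjusted p = 0.000139).

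The ligase subunit itself was lower. Fancl averaged 7.46 FPKM in p53-deficient libraries and 9.30 FPKM in WT libraries (log2 fold change -0.28, adjusted p = 0.00267), and shared 13.7% of its exon bases with Vrk2, whose log2 fold change was -0.44. The library kit is not stated to mark the strand, so reads of such overlapping genes cannot be parted. Fance, the core subunit that contacts FANCD2, averaged 9.07 FPKM in p53-deficient libraries and 11.4 FPKM in WT libraries (log2 fold change -0.30, adjusted p = 0.000628). The core subunits Fanca, Fancc, Fancf and Fancg were not called, with log2 fold changes between -0.11 for Fanca and 0.11 for Fancc. Fanca was called lower after median-ratio scaling (adjusted p = 0.0101) and without p53-deficient library 3 (adjusted p = 0.0346).

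The pair of proteins that the core complex modifies came apart at the RNA level. Fanci had 8.18, 9.10 and 8.95 FPKM in p53-deficient libraries, against 12.2, 11.5 and 11.7 FPKM in WT libraries. The p53-deficient libraries were all lower (log2 fold change -0.39, SE 0.046, adjusted p = 0.000330), and 16.0% of its exon bases were shared with Polg, whose log2 fold change was 0.23. Fancd2 had 6.41, 6.09 and 6.28 FPKM in p53-deficient libraries, against 6.13, 6.37 and 6.43 FPKM in WT libraries. These overlapped, and the gene was not called (log2 fold change -0.01, adjusted p = 0.849) except as lower after median-ratio scaling (log2 fold change -0.10, adjusted p = 0.0471).

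End joining was mixed as well: 3 of 6 genes were higher and 2 were lower, and 3 and 3 after either scaling. Lig4, the ligase of classical end joining, had 3.65, 4.13 and 3.69 FPKM in p53-deficient libraries, against 2.32, 2.21 and 2.38 FPKM in WT libraries. It was higher in each of them, with a ratio of 1.66 and a log2 fold change of 0.54 (SE 0.056, adjusted p = 0.000178). Its scaffold Xrcc4 went the opposite way, with 1.41, 1.60 and 1.47 FPKM in p53-deficient libraries, against 2.36, 2.91 and 2.28 FPKM in WT libraries. The ratio was 0.592 and the log2 fold change -0.49 (SE 0.082, adjusted p = 0.00177).

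Polq encodes the polymerase of theta-mediated joining, a route that uses short shared stretches at resected ends. It had 3.75, 3.55 and 3.63 FPKM in p53-deficient libraries, against 2.31, 2.22 and 2.27 FPKM in WT libraries. All p53-deficient values were higher (ratio 1.61, log2 fold change 0.51, SE 0.044, adjusted p = 8.05e-05). Prkdc, the catalytic subunit of DNA-PK in the classical route, had 3.44, 3.65 and 3.63 FPKM in p53-deficient libraries, against 4.70, 4.55 and 4.94 FPKM in WT libraries. It was lower throughout (log2 fold change -0.33, SE 0.046, adjusted p = 0.000785).

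The Ku subunits, which cap the ends, were the steadiest of this group. Xrcc5 (Ku80) had 48.9, 47.4 and 48.6 FPKM in p53-deficient libraries, against 50.4, 49.7 and 51.0 FPKM in WT libraries. It lay lower in every p53-deficient library but was not called (log2 fold change -0.06, SE 0.023, adjusted p = 0.0582). It was called lower, at -0.16, after median-ratio scaling (adjusted p = 0.000632) and after quantile normalization (adjusted p = 0.000860). Xrcc6 (Ku70) averaged 20.01 FPKM in p53-deficient libraries and 17.55 FPKM in WT libraries and was higher (log2 fold change 0.18, adjusted p = 0.000738), also after both scalings, at 0.08 (adjusted p = 0.0262) and 0.10 (adjusted p = 0.0122).

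The ratio of the FPKM of 2 genes within a library is not changed by a scaling factor applied to the whole library, though quantile normalization can move it. Of 10 pairs so compared most encode proteins that work together, while Polq and Prkdc serve different routes of end joining. The pairs were picked with their values known, so the ratios are a description with no test. Xrcc4 over Lig4 was 0.387, 0.388 and 0.397 in p53-deficient libraries, against 1.02, 1.32 and 0.959 in WT libraries. Atr over Atrip was 0.470, 0.582 and 0.549 in p53-deficient libraries, against 0.973, 1.11 and 1.00 in WT libraries. For both pairs the ratio was lower in every p53-deficient library than in any WT library. How far a ratio lies from 1 also depends on the gene lengths used for FPKM, such as 23629 bases for Atr and 7152 for Atrip. Only the difference between groups is read here. Fanci over Fancd2 was 1.28, 1.49 and 1.43 in p53-deficient libraries, against 1.99, 1.81 and 1.82 in WT libraries. Polq over Prkdc was 1.09, 0.972 and 1.00 in p53-deficient libraries, against 0.491, 0.488 and 0.459 in WT libraries.

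Ku80 over Ku70 (Xrcc5 over Xrcc6) was 2.41, 2.39 and 2.44 in p53-deficient libraries, against 2.86, 2.87 and 2.87 in WT libraries. Small as these gene changes were, the ratio was tight within each group and apart between them. Brca1 over Bard1 was 1.05, 1.10 and 1.08 in p53-deficient libraries, against 1.27, 1.25 and 1.38 in WT libraries. Rad51d over Xrcc2, partners in the paralog complex, was 0.437, 0.419 and 0.513 in p53-deficient libraries, against 0.923, 0.942 and 0.982 in WT libraries. Of the 10 ratios, that of Xrcc3 over Rad51c was the one in which the groups overlapped. How often the ratios of other pairs overlap was not worked out. Taken singly, 71.4% of all genes tested did not overlap between the groups, so separate ratios are no result about these pairs.

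**Figure D4:**
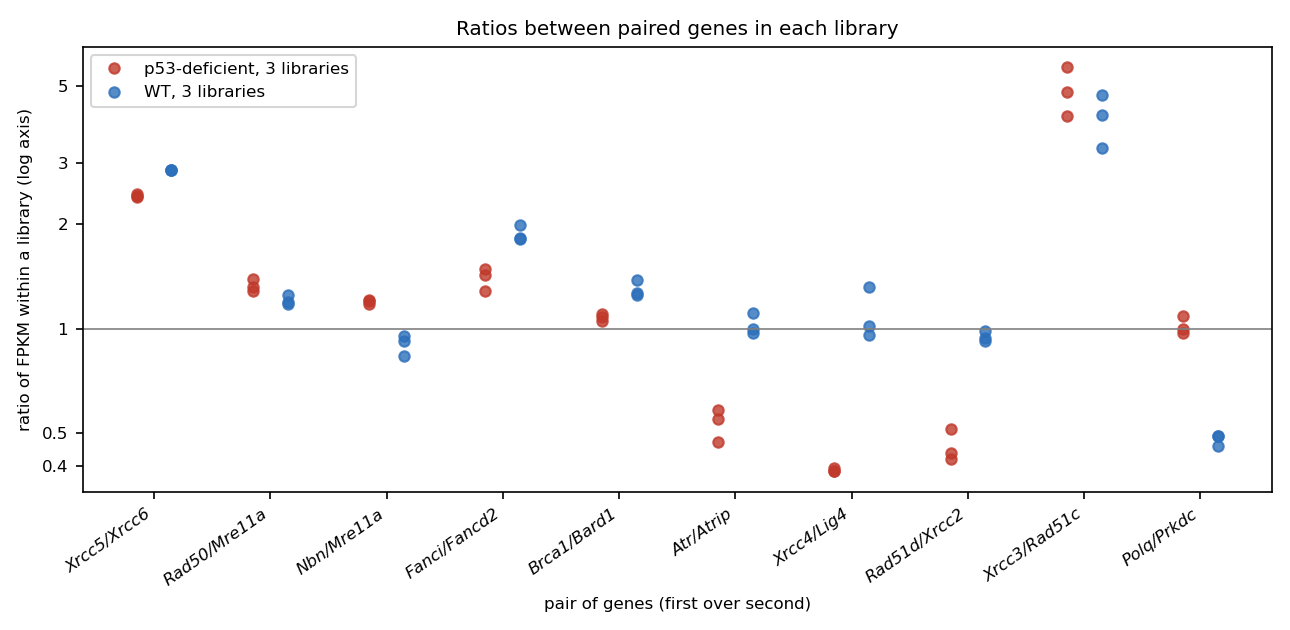
Ratio of FPKM between paired genes (first named over second) in each library, on a log axis, with p53-deficient libraries in red to the left of WT libraries in blue and a line at a ratio of 1. Xrcc4/Lig4 lies between 0.387 and 0.397 in p53-deficient libraries and between 0.959 and 1.32 in WT libraries, while Xrcc3/Rad51c overlaps between the groups.

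Other genes of the same pathways were set beside the list. Of 71 tested, 35 were higher, 13 were lower and 23 were not called, against 35.3% higher and 31.3% lower among all genes tested, with a median log2 fold change of 0.12. Median-ratio scaling gave 23 higher and 19 lower, against 27.6% and 37.5% of all genes, with a median of 0.02. Quantile normalization gave 33 higher and 14 lower, against 36.7% and 29.8% of all genes. These shares of all genes also stand behind the counts of each list that follows. Other checkpoint genes were higher in 8 of 12 cases and lower in 1. Etaa1, an activator of ATR beside TOPBP1, averaged 14.4 FPKM in p53-deficient libraries and 8.18 FPKM in WT libraries (log2 fold change 0.75), and Hus1, of the clamp loaded at damage, was the gene called lower (log2 fold change -0.24). After scaling 5 were higher and 2 lower.

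Of 15 other Fanconi and crosslink genes 9 were higher and 3 were lower, and 6 and 3 after scaling. They held the largest changes in either direction. Faap100, a core complex partner of FANCB and FANCL, averaged 8.33 ± 0.192 FPKM in p53-deficient libraries and 2.64 ± 0.318 FPKM in WT libraries (SD, n = 3 each; log2 fold change 1.36). Rev1, a polymerase of translesion synthesis, averaged 2.99 ± 0.246 FPKM in p53-deficient libraries and 10.03 ± 0.202 FPKM in WT libraries (SD, n = 3 each; log2 fold change -1.47). Eif5b, at a mean of 32.5 FPKM, overlaps 26.6% of the exon bases of Rev1 on the opposite strand, and without strand these reads cannot be parted. Faap100 rose, as did Fancb, while Fancl fell.

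Other recombination genes were divided, with 9 of 21 higher and 5 lower, or 7 and 8 after scaling. Top3a, the topoisomerase partner of BLM, averaged 9.87 FPKM in p53-deficient libraries and 6.21 FPKM in WT libraries (log2 fold change 0.59), and Slx1b, a nuclease subunit for joint molecules that shares 10.2% of its exon bases with Bola2, 3.77 FPKM in p53-deficient libraries and 4.94 FPKM in WT libraries (log2 fold change -0.32). Of 14 other end joining genes 5 were higher and 3 lower, or 3 and 3 after scaling, from Tdp2 (log2 fold change 0.56), which removes topoisomerase II from DNA ends, to Parp3 (-0.84). Of 9 other genes of break chromatin and the BRCA1-A complex 4 were higher and 1 was lower, or 2 and 3 after scaling. Mad2l2, the shieldin subunit that limits resection, was higher at 0.55, and Rnf169, a reader of RNF168 marks, was lower at -0.87.

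S phase genes are given because many repair genes follow the cell cycle. Of 20 tested 12 were higher and 4 were lower, against 35.3% and 31.3% of all genes, with a median of 0.14. After median-ratio scaling 8 were higher and 6 lower, against 27.6% and 37.5% of all genes, with a median of 0.03. Quantile normalization gave 9 higher and 6 lower, against 36.7% and 29.8% of all genes. Cdc6, which licenses origins, averaged 33.1 FPKM in p53-deficient libraries and 13.5 FPKM in WT libraries (log2 fold change 1.23), and Rrm2, a subunit of ribonucleotide reductase, 88.5 FPKM in p53-deficient libraries and 121.4 FPKM in WT libraries (log2 fold change -0.45). The part of the cell cycle in the repair genes' values was not tested.

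**Figure D5:**
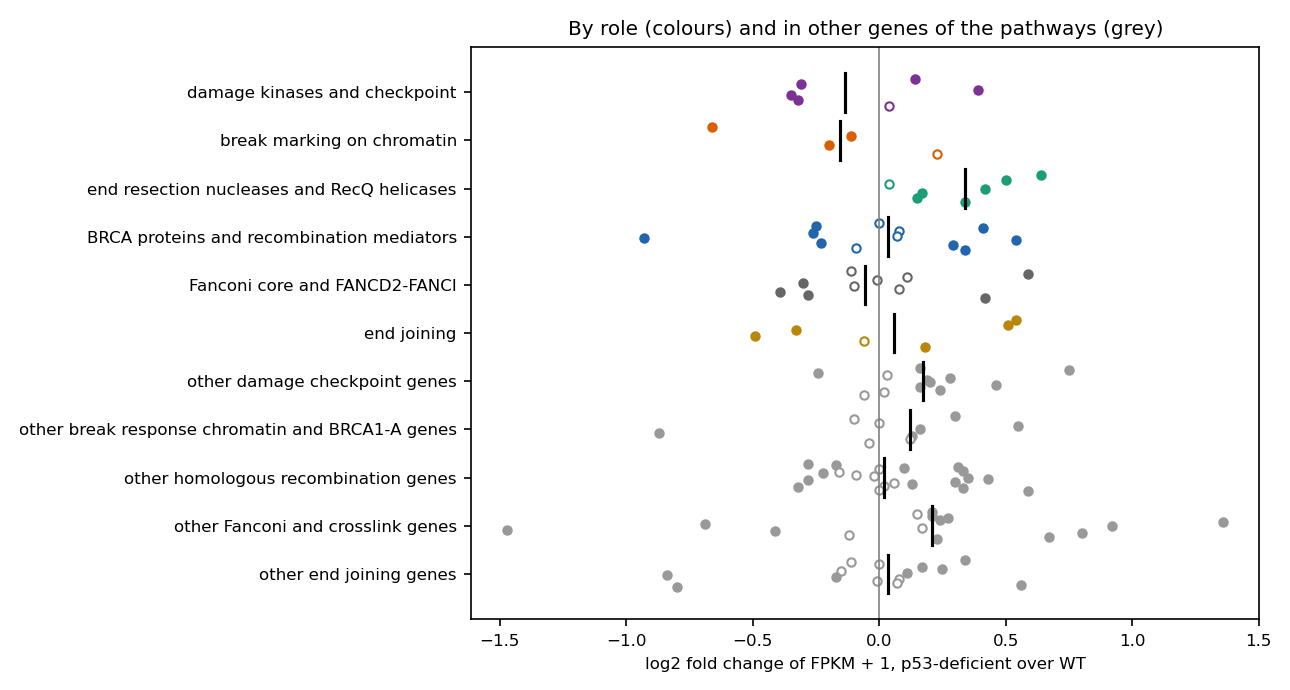
Log2 fold change of FPKM + 1, p53-deficient over WT, for the repair genes by role (colours) and for other genes of the same pathways (grey), with filled points for genes that passed the test and vertical bars at each list's median. Medians run from -0.15 for break marking to 0.34 for resection and RecQ helicases, and the other Fanconi and crosslink genes span -1.47 (Rev1) to 1.36 (Faap100).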

How the data were processed

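Poly-T purified RNA of 3 p53-deficient and 3 WT libraries was sequenced. The authors deposited one table of FPKM values per gene and library; the submitters' processing notes name mm10, HISAT2 2.0.5 and featureCounts 1.5.0-p3, whose settings are not given in the sources used here. FPKM multiplied by gene length and a divisor found per library gave whole reads for 100% of the values up to 1000 reads (tolerance 0.001), which set the depth quoted. Precision is limited by 3 libraries a group. The 45 genes, the other lists and the pairs were chosen with earlier results of these data known. Log2(FPKM + 1) of genes with a mean of at least 0.5 FPKM was fitted with limma 3.58.1 (R 4.3.3; moderated, trended variance, two-sided), checked on simulated data. An exact permutation test of 3 against 3 libraries cannot give a p under 0.1, so single genes rest on limma. Named in full were the 18 called genes of largest log2 change, the 2 most abundant genes, and the most abundant gene of each role that did not pass; other genes are named for their role, and in other lists the largest rise and fall. The alternatives were median log2 ratio and quantile scaling, other filters, pseudocounts and thresholds, weights, voom on rebuilt reads, a replicate block and leaving out each library. Exon overlaps come from GENCODE M21, where 43 of the 45 genes had the deposited coordinates, and promoters from RefSeq. In all, 7 of the 45 shared at least 10% of their GENCODE exon bases with a gene at a mean of at least 0.5 FPKM: besides Rad54b, Fancl and Fanci these were Rad54l with Lrrc41 (15.4%), Fanca with Zfp276 (10.5%), Fancf with Gas2 (15.0%) and Rnf8 with Gm28043. Rnf8 and Rbbp8 had other coordinates in the table; for Rnf8, whose deposited length is 3178 bases and whose GENCODE exons hold 11703, the overlap is 1542 GENCODE bases.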

Additional observations from a re-analysis of the deposited data

How the results depend on the processing

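Of the 32 repair genes called, 26 kept their call under every one of the 17 alternatives that could test them (14 higher and 12 lower), and no repair gene reversed. Keeping only genes with a mean of at least 5 FPKM left fewer genes to test, with 9 repair genes and 2268 of all genes lower. Leaving out 1 library at a time gave 16 to 17 repair genes higher and 13 to 15 lower, and 4925 to 5111 of all genes higher and 4268 to 4635 lower; the calls of Atm, Mdc1 and Rad51b were lost under some of these, and Rnf8 or Fanca was gained in others. At an adjusted p under 0.01, 15 repair genes were higher and 12 lower. With voom weights on rebuilt reads 18 were higher and 18 lower, adding Rnf8, and Xrcc2 (adjusted p = 0.0390), Fanca and Xrcc5. Without a filter on low values Mdc1 (adjusted p = 0.0792) and Rad51b (adjusted p = 0.0847) were not called. Quantile normalization added Palb2, Fancc, Fancg, Rnf8 and Xrcc5. A replicate block gave the same 17 higher and 15 lower, and 5187 and 4579 of all genes. Same-numbered libraries had correlations of deviations of -0.0328, 0.0142 and 0.00556. With 3 libraries a group, these values cannot tell whether same-numbered samples were prepared together. At 41 reads in the shallowest case, small differences in low genes may have been missed, though Rad51b, at 41 to 125 reads, was called. No limit of detection was worked out.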

Other observations

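The expressed genes next to the repair genes of largest change did not all move with them. Beside Rad51d, Rffl averaged 1.97 FPKM in p53-deficient libraries and 2.93 FPKM in WT libraries (log2 fold change -0.41, limma adjusted p = 0.00406), whereas Nle1, a ribosome assembly factor on its other side, averaged 21.0 FPKM in p53-deficient libraries and 13.5 FPKM in WT libraries (log2 fold change 0.59, adjusted p = 9.68e-05). Beside Blm, Furin, a protease of the secretory pathway, was lower (log2 fold change -0.43, adjusted p = 0.00153). On its other side Ndufab1-ps, a pseudogene by its symbol, averaged 14.4 FPKM in both groups (log2 fold change 0.00, adjusted p = 0.973). Its reads were not checked against like transcripts elsewhere. Both neighbours of Lig4 were higher, Arglu1 at 0.41 (adjusted p = 6.28e-05) and Abhd13 at 0.24 (adjusted p = 0.00166). Beside Rad52, Erc1 was higher at 0.50 (adjusted p = 0.000275), and Wnk1 was not called (log2 fold change -0.05, adjusted p = 0.216). Neither neighbour of H2afx or of Fancb was called, but Gm48853 beside H2afx was near the filter, at 0.685 FPKM in p53-deficient libraries and 0.405 FPKM in WT libraries.

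Tested genes of single chromosomes had median log2 fold changes between -0.04 and 0.09.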
